A study of Mus musculus with 12 samples.

Results

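The nuclear genes for subunits of the mitochondrial respiratory chain and ATP synthase were examined for peaks of the chromatin remodeller INO80 and of the histone variant H2A.Z in mouse spermatogenic cells. The genes were taken by symbol from the RefSeq annotation of mm10: all protein-coding genes whose symbols begin with Nduf followed by a, b, c, s or v, with Cox4 to Cox8, with Uqcr or with Atp5. This gave 92 of 21887 protein-coding genes of the nuclear chromosomes. The symbol rule also takes in 8 assembly factors of complex I (Ndufaf genes), which help to build the complex and are not part of it. A gene was scored as holding a protein when a peak lay within 1 kb of either annotated end of the gene, called a gene end here.

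Electrons from nutrients pass from complex I (NADH dehydrogenase) through ubiquinone to complex III (cytochrome bc1) and then through cytochrome c to complex IV (cytochrome c oxidase). The protons pumped on the way drive complex V (ATP synthase). Most subunits are encoded in the nucleus and made in nearly every cell, but several complex IV subunits exist as paralogous forms, among them Cox6b2, Cox7b2 and Cox8c, which are known from testis. Promoters of the ubiquitous genes are known as targets of the activators NRF1 and GABPA, and the INO80 complex can be brought to DNA by YY1.

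Chromatin immunoprecipitation and sequencing (ChIP-seq) was done on spermatogenic cells of testes at postnatal day 18, from mice of mixed background, after digestion of chromatin with micrococcal nuclease. The 12 libraries form 6 groups of 2, and 3 of the groups are inputs. An antibody to INO80 was used on wild-type cells, and an antibody to H2A.Z on Ino80WT and on Ino80cKO cells. Ino80cKO mice lose Ino80 through Stra8-Cre, which is expressed from premeiotic germ cells onward. Cre acts only in germ cells that express it, so chromatin of other cells left in the filtered suspension would keep Ino80. Each ChIP group has 1 deposited peak list that gives positions alone: 18139 INO80 peaks, 33827 wild-type and 26199 knockout H2A.Z peaks. No value below therefore has a replicate error, no test between groups was possible, and the read depth is unknown. The intervals printed are 95% Wilson intervals that cover counting error only. No list shows INO80 in the knockout, so the deletion itself could not be checked. Peaks do not measure expression. Of the germ cell markers 4 of 5 held INO80 (Ddx4, Dazl, Sycp3 and Dmc1, but not Stra8), against 54.5% of all protein-coding genes. So did 3 of 3 Sertoli cell markers and 1 of 3 Leydig cell markers, Insl3, whose 5468 bp peak extends outside the gene. Wild-type H2A.Z lay at 3 of 5 germ cell, 3 of 3 Sertoli cell and 0 of 3 Leydig cell markers, against 62.6% of all genes.

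INO80 was listed at most of these genes. It lay at a gene end of 72 of 92 (78.3%, 68.8 to 85.5%), against 54.5% of all protein-coding genes. Complex I and its assembly factors held it at 41 of 47 genes (87.2%), complex III at 7 of 8, complex V at 14 of 17 and complex IV at 10 of 20 (29.9 to 70.1%). Complex IV is thus the complex whose share lay nearest to that of all genes. The count includes Ndufa4 and Ndufa4l2, which were first assigned to complex I and are counted here with complex IV. The share depended on narrow peaks: when only the widest 50% of each list was kept, 17.4% of the 92 genes held INO80 against 32.9% of all genes, so the order turned.

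**Figure D1:**
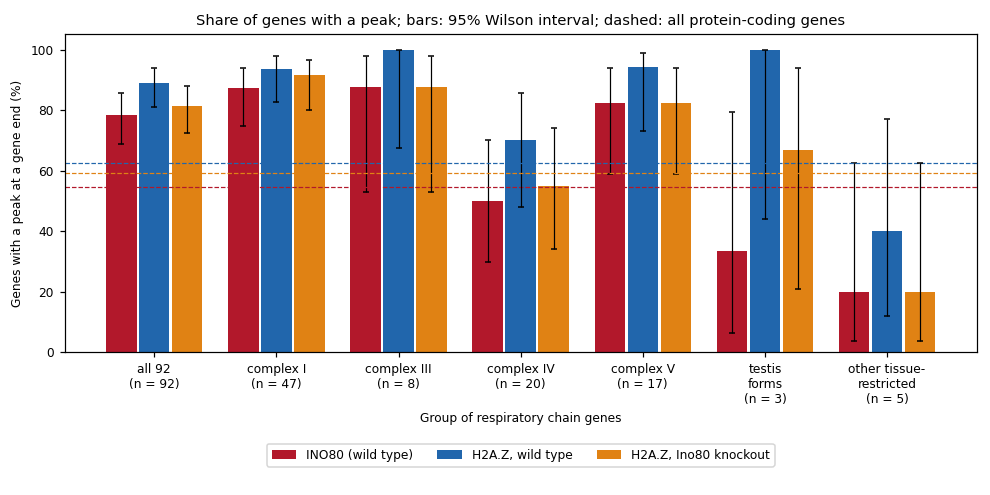
Share of genes with a peak within 1 kb of a gene end (y axis, percent) for all 92 genes, each complex, the testis forms and the other tissue-restricted forms, for INO80 and for H2A.Z of both genotypes. Error bars are 95% Wilson intervals and dashed lines give the share over all protein-coding genes; complex IV, with INO80 at 10 of 20 genes, stands below complexes I, III and V.

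The INO80 peaks at these genes were narrow. Where INO80 was present, the widest peak per gene had a median of 385.5 bp (quartiles 293 and 579 bp), against 844 bp for all protein-coding genes with INO80. The median width rank was the 30.9th percentile of the INO80 list, against 58.9 for all genes. Peaks under 500 bp were the widest at 46 of the 72 genes (63.9%, against 27.5% of all genes with INO80). Peaks of 1000 bp or more occurred at 12 of 72 (16.7%, against 41.5%), and all 12 of these genes had another gene end within 2 kb. Over all genes with INO80 peaks this wide, the share with such a neighbour was not counted. Close neighbours were frequent, at 56 of 92 genes (60.9%, against 32.2% of all), although no gene of the set neighboured another. Among genes without a close neighbour INO80 was listed at 23 of 36 (63.9%, against 45.7% of all such genes) with a median width of 372 bp (against 932.5 bp). Narrow INO80 peaks were also seen at proteasome subunit genes (median 423 bp) and mitochondrial ribosomal protein genes (501 bp), and less so at cytosolic ribosomal protein genes (622 bp).

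In complex I several of the core subunits bind the flavin and iron-sulfur cofactors or the quinone. INO80 was listed at the core subunit genes Ndufs1 (1287 bp), Ndufs3 (644 bp), Ndufv2 (522 bp), Ndufs7 and Ndufs8 (512 bp each) and Ndufv1 (231 bp), which encodes the subunit that binds NADH. Of the 32 accessory subunits 27 held it. The widest peaks of complex I lay at Ndufa13 (1886 bp, chromosome 8, 69894163 to 69902558 for the gene), Ndufb6 (1794 bp, chromosome 4) and the assembly factor Ndufaf3 (1676 bp, chromosome 9). The peak counted for Ndufb6 lies wholly outside that gene, which has Smim27 and Topors beside it, and 727 bp of the Ndufaf3 peak lie inside Ndufaf3. The 8 assembly factor genes all held INO80, with widths from 156 bp at Ndufaf2 to the 1676 bp of Ndufaf3. The 5 accessory genes without INO80 at a gene end were Ndufa5, Ndufb10, Ndufs5, Ndufb4b and Ndufb4c. Ndufb4b and Ndufb4c are short genes (471 and 485 bp) whose symbols mark them as copies of Ndufb4, so reads of these loci may not be told apart from those of Ndufb4.

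In complex III INO80 was widest at Uqcrh (1389 bp), the hinge protein gene, followed by Uqcrfs1 (784 bp), which encodes the Rieske iron-sulfur protein, and Uqcrc1 (515 bp). The peak counted at Uqcrh lies outside the gene, 280 bp from it and towards Lrrc41. Only Uqcr11 lacked INO80 among the 8. In complex V the widest peak lay at Atp5d (3540 bp, of which 1133 bp inside the gene), the delta subunit gene of the F1 part, with Cbarp and Midn beside it. Next came Atp5j (1468 bp), a stalk subunit gene that shares its promoter region with Gabpa, the gene of one of the activators named above. Atp5pb, the peripheral stalk subunit b gene, followed with 1124 bp. Atp5a1, which encodes the alpha subunit of the F1 head, had no peak of any list within 1 kb, and its nearest INO80 peak lay 11141 bp from the gene. Atp5b, the beta subunit gene, held INO80 (520 bp) and narrow H2A.Z peaks (wild type 167 bp, knockout 173 bp). Atp5g3, a c-ring gene, and Atp5mpl also lacked INO80 at a gene end. The other two c-ring genes, Atp5g1 and Atp5g2, held it (260 and 803 bp).

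**Figure D2:**
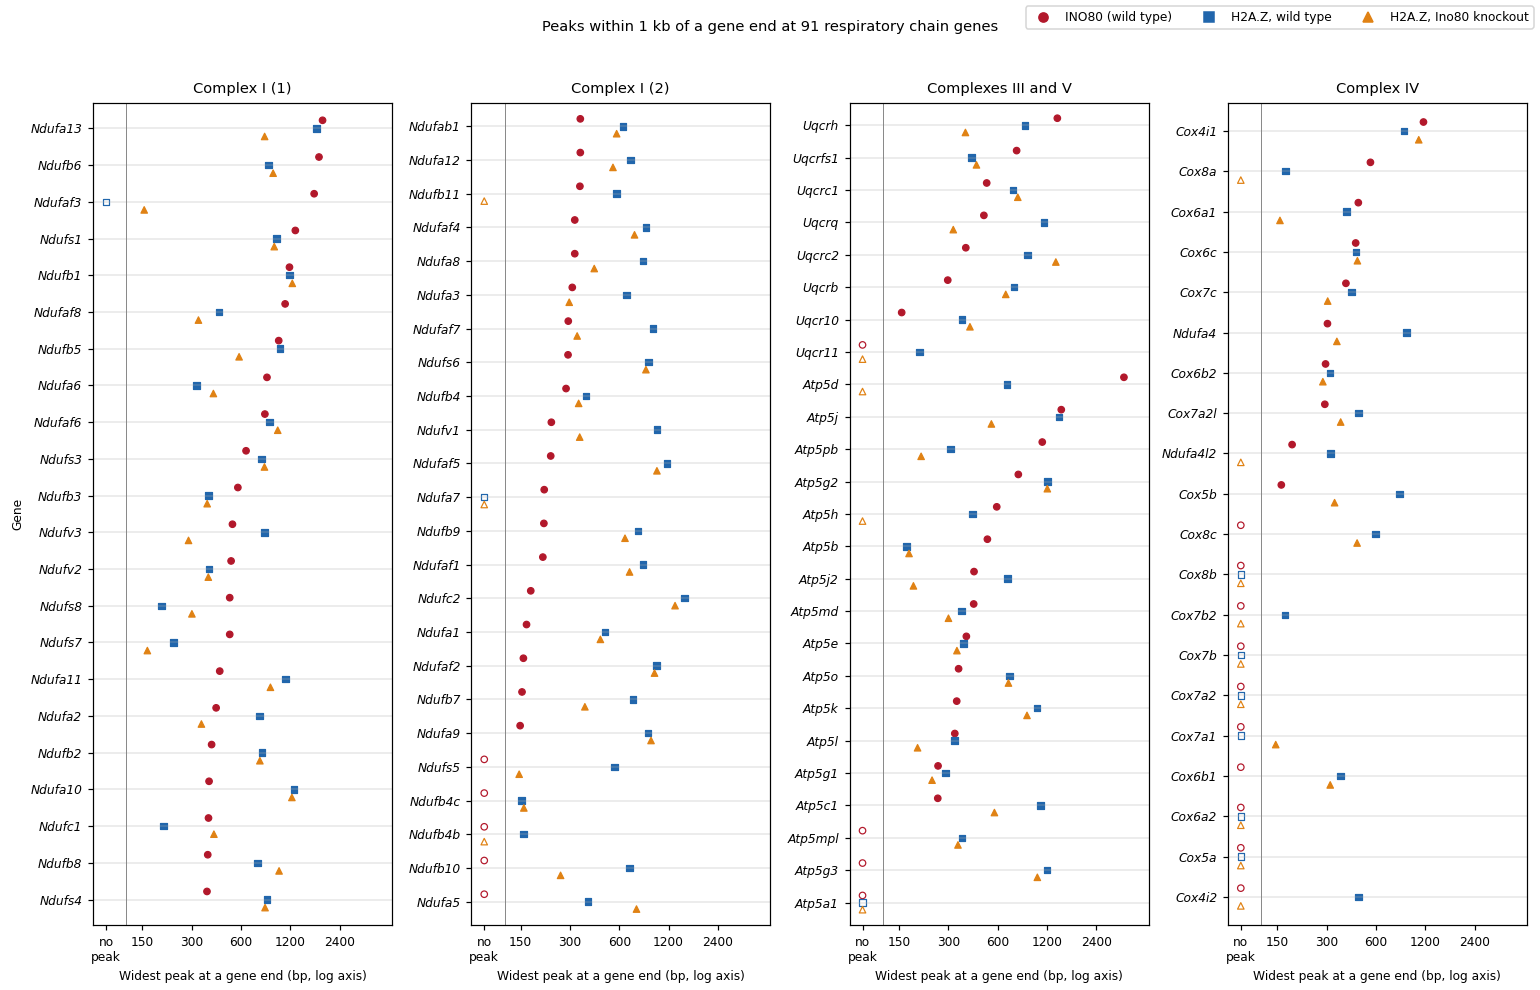
Width of the widest peak within 1 kb of a gene end (x axis, bp, log axis) for 91 of the 92 genes (y axis), with INO80 as circles and H2A.Z of wild type and knockout as squares and triangles. Open symbols left of the grey line mark genes without a peak; within each complex genes are ordered by INO80 width, from 3540 bp at Atp5d down to the genes without INO80.

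In complex IV the catalytic core is encoded by mitochondrial DNA and was not part of the set. The widest INO80 peaks of its nuclear genes lay at Cox4i1 (1171 bp), Cox8a (556 bp) and Cox6a1 (469 bp). The 10 genes without INO80 were Cox4i2, Cox5a, Cox6a2, Cox6b1, Cox7a1, Cox7a2, Cox7b, Cox7b2, Cox8b and Cox8c. They comprise 6 tissue-restricted forms and 4 genes of the ubiquitous enzyme (Cox5a, Cox6b1, Cox7a2 and Cox7b).

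Some genes were missed because their annotated gene extends beyond the listed transcription start. Cox5a begins 3904 bp before its start, and the peaks over that start (INO80 733 bp, wild-type H2A.Z 998 bp, knockout H2A.Z 428 bp) fall outside the windows. The listed start of Cox7a2 lies 4612 bp from the nearer gene end, with wild-type H2A.Z (852 bp) and a pair of knockout peaks (188 and 192 bp) but no INO80 there. The start of Atp5g3 lies 1138 bp from its gene end and carries an INO80 peak of 690 bp. Counting peaks anywhere in the gene or within 1 kb of it, a choice made after seeing the data, gave INO80 at 75 of 92 genes (81.5%, against 60.6% of all genes). Of the 75 genes with a start in the RefSeq promoter table, 64 (85.3%) held INO80 within 1 kb of it, against 56.0% of the 17492 protein-coding genes with such an entry.

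At the start, INO80 sat mainly downstream, inside the gene. For the 70 genes with 1 listed start, 60 held INO80 within 1 kb. The centre of the widest peak lay at a median of 198 bp downstream (quartiles 70 and 244 bp). Over all protein-coding genes with 1 start the median was similar, 192 bp (quartiles 33 and 322 bp). In 40 of the 60 the centre fell between 100 and 350 bp downstream (66.7%, against 45.8% of all protein-coding genes with 1 start and INO80). This interval was not among the planned comparisons, and it encloses the median of these genes. Only 15 of the 60 had an INO80 peak over the start itself (all genes, 67.9%). Narrow peaks in general shared much of this: among all genes whose INO80 peak had a width between the quartiles of these genes, 65.9% were centred in that interval and 36.3% lay over the start. Proteasome subunit genes were close, with 60.6% centred there and 36.4% over the start. Mitochondrial ribosomal protein genes had 49.2 and 54.2%, and cytosolic ribosomal protein genes 55.6 and 48.1%. Of the 14 genes whose widest INO80 peak was centred upstream, 13 had another gene end within 2 kb, the exception being Atp5g2. Of the 46 with a centre downstream, 23 had one. Over all genes, 637 of the 1656 with an upstream centre had no other gene end within 2 kb. Among genes without a close neighbour the centre fell between 100 and 350 bp downstream at 22 of 24 (91.7%, against 48.5% of all such genes).

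Wild-type H2A.Z peaks were broader and more often crossed the start. The widest was centred at a median of 1 bp from the start (quartiles -194 and 142 bp), and 36 of 66 genes had H2A.Z over the start (54.5%, against 69.7% of all genes). Of the 59 genes with both proteins, 45 had the INO80 centre downstream of the H2A.Z centre (76.3%, against 62.1%). At 27 of the 59 H2A.Z crossed the start and INO80 did not (45.8%, against 16.4%). Ndufc2, a complex I gene, shows the pattern: wild-type H2A.Z ran from -876 to 626 bp and INO80 from 86 to 258 bp. At Ndufaf2 H2A.Z ran from -561 to 448 bp and INO80 from 223 to 378 bp.

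**Figure D3:**
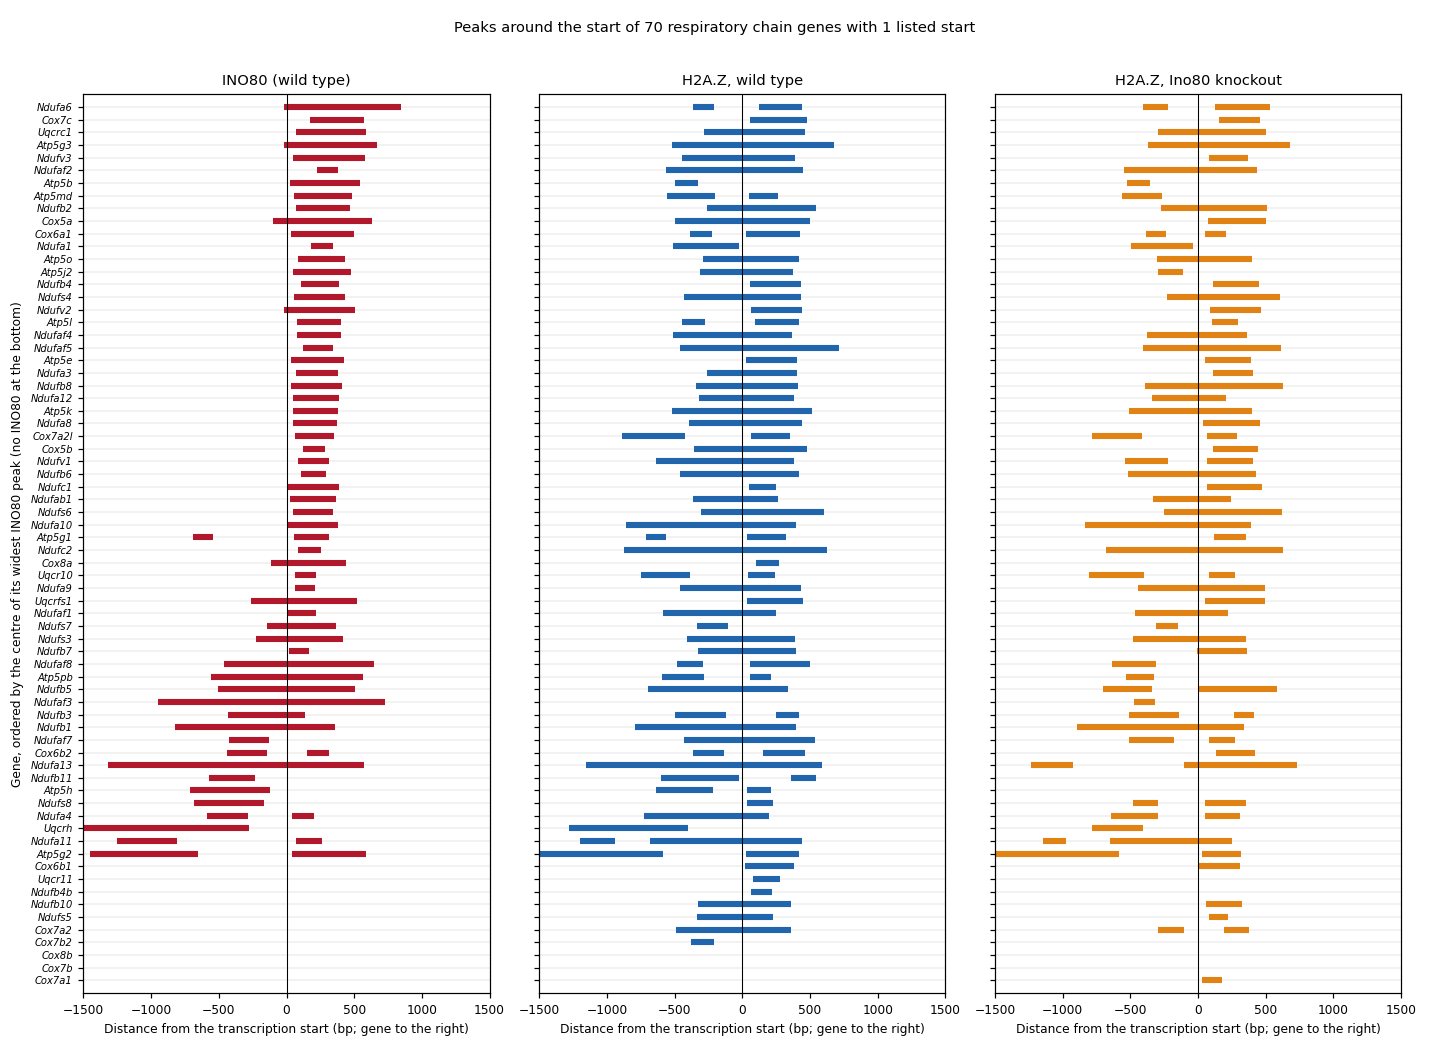
Peaks that reach within 1 kb of the transcription start of the 70 genes with 1 listed start (rows), for INO80, wild-type H2A.Z and knockout H2A.Z. The x axis (bp, gene body to the right) spans 1500 bp to either side, and peaks wholly beyond 1 kb are not drawn. Rows are ordered by the centre of the widest INO80 peak; most INO80 peaks sit just right of the start, and H2A.Z peaks cross it at 36 genes in the wild type and 25 in the knockout.

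Promoter sequences were taken from the RefSeq table of GRCm38.p6 (the assembly of mm10), which has 75 of the 92 genes, and searched on both strands for GCGCA followed by any base and GCGC (NRF1), CCGGAAG (the ETS family, to which GABPA belongs), AANATGGCG (YY1) and GGGCGG (SP1), and on the gene strand for TATAAA. Matches of different motifs may share bases. The windows ran from 250 bases before to 50 after the start. The NRF1 motif was found at 17 of 75 genes (22.7%, against 7.17% of all protein-coding genes), the ETS motif at 17 (22.7%, against 12.9%) and the YY1 motif at 11 (14.7%, against 3.64%). SP1 motifs stood at 44.0% (against 49.2%) and TATAAA at 4.00% (against 9.82%). Among all genes with INO80 near a start the shares were 11.2% for NRF1, 18.6% for ETS, 6.08% for YY1, 73.7% for SP1 and 5.13% for TATAAA. Mitochondrial ribosomal protein genes had 18.8% for NRF1, 37.7% for ETS and 15.9% for YY1. The ETS motif stood at 33.8% of cytosolic ribosomal protein genes and 37.2% of proteasome genes, both above the 22.7% here. The 11 YY1 matches all fell among the 64 genes with INO80 near a start (17.2%), and 0 of the 11 genes without INO80 had one, a count that still allows a share of up to 27.3%. A match is a match of letters and not a bound site.

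The 130 bases before the start are shown for 2 ubiquitous genes with NRF1 motifs and INO80, Ndufb4 (chr16:37654369-37654498, minus strand) and Cox6a1 (chr5:115348959-115349088, minus), and for 2 pairs of a somatic and a testis form. The pairs are Cox6b1 (chr7:30626115-30626244, minus) with Cox6b2 (chr7:4753095-4753224, minus), and Cox7b (chrX:106015570-106015699, plus) with Cox7b2 (chr5:71548206-71548335, minus). Each reads 5′ to 3′ up to the base before the start, and capitals mark the motifs found, SP1 and ETS also as their reverse complements.
Ndufb4: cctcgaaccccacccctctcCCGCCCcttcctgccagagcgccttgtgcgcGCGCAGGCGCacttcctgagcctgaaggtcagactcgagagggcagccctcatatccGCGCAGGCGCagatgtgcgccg
Cox6a1: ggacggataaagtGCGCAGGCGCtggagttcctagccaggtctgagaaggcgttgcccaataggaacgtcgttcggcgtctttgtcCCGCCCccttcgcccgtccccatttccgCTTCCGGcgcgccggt
Cox6b1: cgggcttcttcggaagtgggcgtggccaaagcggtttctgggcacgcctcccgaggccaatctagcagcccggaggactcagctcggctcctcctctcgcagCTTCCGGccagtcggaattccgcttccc
Cox6b2: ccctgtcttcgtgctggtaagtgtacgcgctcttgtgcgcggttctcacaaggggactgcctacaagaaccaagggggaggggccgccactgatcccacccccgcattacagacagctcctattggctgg
Cox7b: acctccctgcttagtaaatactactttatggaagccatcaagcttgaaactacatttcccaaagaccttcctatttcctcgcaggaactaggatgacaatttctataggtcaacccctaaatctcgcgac
Cox7b2: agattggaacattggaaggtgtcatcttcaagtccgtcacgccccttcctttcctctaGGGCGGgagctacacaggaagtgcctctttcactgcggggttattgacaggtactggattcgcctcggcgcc
Counted from the start, Ndufb4 has NRF1 motifs at -79 and -22 and an SP1 motif at -110. Cox6a1 has an NRF1 motif at -117, SP1 at -44 and ETS at -16. Cox6b1 has an ETS motif at -28, Cox7b2 an SP1 motif at -72, and Cox6b2 and Cox7b have no match in these bases. At Ndufb4 INO80 (106 to 389 bp) and H2A.Z (57 to 433 bp) both lay downstream of the start, and at Cox6a1 INO80 ran from 30 to 498 bp.

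Wild-type H2A.Z lay at a gene end of 82 of the 92 genes (89.1%, 81.1 to 94.0%), against 62.6% of all protein-coding genes, and knockout H2A.Z at 75 (81.5%, 72.4 to 88.1%), against 59.2%. With only the widest 50% of each list the order turned for knockout H2A.Z (41.3% of these genes, 43.1% of all genes) and not for wild-type H2A.Z (56.5 and 49.2%). By complex, wild-type H2A.Z was listed at 44 of 47 genes of complex I, 8 of 8 of complex III, 14 of 20 of complex IV and 16 of 17 of complex V. Of the 72 genes with INO80, 70 also had wild-type H2A.Z at a gene end (background 96.2%). The exceptions were Ndufa7, an accessory subunit gene with a 209 bp INO80 peak and no H2A.Z in either genotype, and Ndufaf3. At 66 of the 72 the peaks themselves overlapped, a count that was not made over all genes. The widest wild-type H2A.Z peak per gene had a median of 695.5 bp (against 805 bp for all genes), and the widest knockout peak 422 bp (against 671 bp).

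With Ino80 deleted, H2A.Z stayed listed at most of these genes. Both genotypes had it at 73 of 92 (79.3%, against 58.5% of all genes), the wild type alone at 9 (9.78%, against 4.13%), the knockout alone at 2 (2.17%, against 0.653%) and neither at 8 (8.70%, against 36.7%). Of genes with wild-type H2A.Z, 6.59% overall were in the wild type alone, and here 9 of 82 were. INO80 was present at 65 of the 73 genes where wild type and knockout both had H2A.Z, 5 of the 9 in the wild type alone, 1 of the 2 in the knockout alone (Ndufaf3) and 1 of the 8 in neither. Over all protein-coding genes these shares were 86.5%, 45.4%, 52.4% and 4.7%.

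The 9 genes with H2A.Z in the wild type alone were Atp5d (687 bp), Ndufb11 (576 bp), Cox4i2 (471 bp), Atp5h (422 bp), Ndufa4l2 (318 bp), Uqcr11 (200 bp), Cox8a (169 bp), Cox7b2 (167 bp) and Ndufb4b (156 bp). Their median of 318 bp lay below the 755 bp of the genes with H2A.Z in both, as over all genes (281 and 836 bp). A knockout peak over these wild-type peaks is nearly excluded by how the class is defined, and none was listed. The nearest knockout peak lay 2.5 kb away at Ndufa4l2, 3.0 kb at Atp5d, 6.1 kb at Atp5h and 68.6 kb at Ndufb11. The X chromosome holds 3 of the 92 genes: Ndufa1, with INO80 of 163 bp and H2A.Z of 491 and 460 bp, Cox7b and Ndufb11. Ndufb11 (wild-type peak 20617647 to 20618222), is an accessory complex I gene beside Rbm10. Cox8a is the ubiquitous form of a small complex IV subunit. Its INO80 peak (7217178 to 7217733 on chromosome 19, 556 bp) enclosed the wild-type H2A.Z peak of 169 bp. Atp5d has a knockout peak of 203 bp inside the gene, near a listed start that is 3513 bp from the gene end, and Ndufa4l2 has a knockout peak of 244 bp inside the gene. Counting the gene body, neither was in the wild type alone. Windows of 3 kb likewise ended the call at Atp5h and Ndufa4l2. The 2 genes in the knockout alone had very short peaks: 154 bp at Ndufaf3, and at Cox7a1 the shortest width that the lists hold. Windows of 3 kb ended the call at Ndufaf3.

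Where both genotypes had H2A.Z, the widest knockout peak was the narrower at 55 of 73 genes (75.3%, against 72.0% of all genes). The median log2 ratio of knockout to wild-type width was -0.19, against -0.16 for all genes, a difference between medians that is small beside the quartiles of these genes (-0.83 and -0.00). A knockout width under 0.5 times the wild-type width occurred at 15 of 73 (20.5%, against 13.2%). The lowest ratios were at Ndufs5 (561 bp in the wild type, and in the knockout the shortest width that the lists hold), Atp5j2 (690 and 184 bp) and Uqcrq (1152 and 322 bp). All 3 encode small subunits, of complexes I, V and III. In complex IV the widest knockout peak was much the shorter at Cox5b (838 and 336 bp), Cox6a1 (396 and 156 bp) and Ndufa4 (924 and 347 bp). At Ndufa4 another knockout peak, of 263 bp, also overlapped the wild-type peak. By complex the knockout peak was narrower at 31 of 42 genes of complex I, 3 of 7 of complex III, 8 of 10 of complex IV and 13 of 14 of complex V. Wider knockout peaks were listed at 18 genes, among them Ndufc1 (202 and 410 bp), Ndufa5 (387 and 764 bp) and Uqcrc2 (916 and 1360 bp), a core subunit of complex III. Depth of the libraries, which bears on width, is unknown, and its part was not tested.

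**Figure D4:**
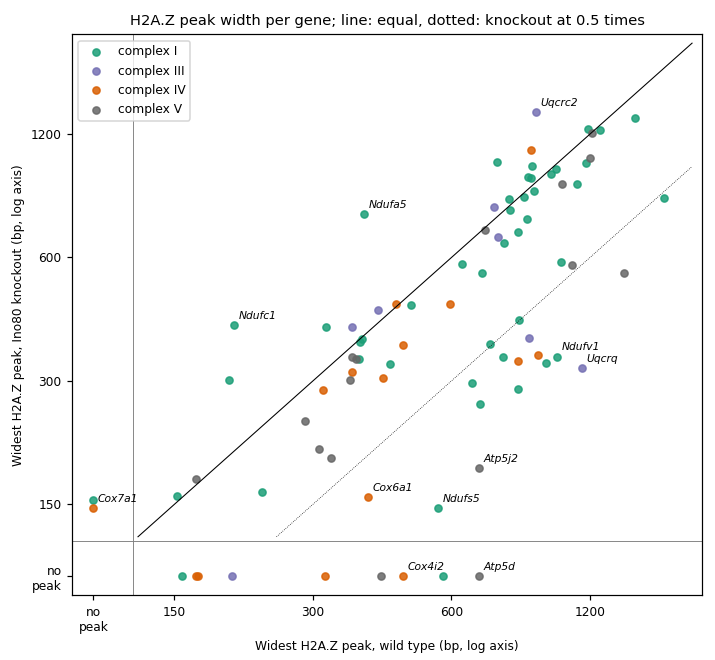
Width of the widest H2A.Z peak per gene in the wild type (x axis, bp, log axis) and in the Ino80 knockout (y axis, bp, log axis), coloured by complex. Points below the solid line, 55 of the 73 genes with both, are narrower in the knockout, points below the dotted line are under 0.5 times the wild-type width, and the strips at the left and bottom hold genes with no peak in 1 genotype.

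Some wild-type peaks faced several shorter knockout peaks. At 8 of the 82 genes with wild-type H2A.Z, a wild-type peak was overlapped by 2 or more knockout peaks (9.76%, against 6.38% of all genes with wild-type H2A.Z). These genes were Atp5c1, Atp5j, Ndufa13, Ndufa2, Ndufa4, Ndufaf7, Ndufb5 and Ndufv1. At Ndufv1 a wild-type peak ran from -634 to 381 bp around the start, and the knockout peaks from -539 to -220 bp and from 63 to 406 bp. At Cox7a2, whose start lies outside the windows, a wild-type peak from -489 to 362 bp stood against knockout peaks from -293 to -102 bp and from 192 to 379 bp. Of the 60 genes with 1 start and H2A.Z near it in both genotypes, 36 had H2A.Z over the start in the wild type and 25 in the knockout (60.0 and 41.7%, against 72.2 and 60.2% of all genes). The start was covered in the wild type alone at 12 of the 60 genes and in the knockout alone at 1. Over all genes it was 1247 of 8384 (14.9%) and 240.

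The testis forms were compared with their somatic counterparts (somatic here means the form made in most tissues). Cox6b1 and Cox6b2 encode the subunit that faces the intermembrane space. Cox6b2 (chromosome 7, 4751792 to 4753094) held 2 INO80 peaks, of 296 and 164 bp, wild-type H2A.Z peaks of 315 and 230 bp and a knockout peak of 285 bp. The knockout peak lay downstream of the start, and the wild-type peak upstream of it (-361 to -132 bp) had no knockout partner. The upstream INO80 and H2A.Z peaks counted for Cox6b2, the wider INO80 peak among them, lie wholly inside the neighbouring gene Fam71e2, and the 164 bp INO80 peak lies inside Cox6b2. Cox6b1 held no INO80, the nearest being 8783 bp away, and H2A.Z of 364 bp (wild type) and 316 bp (knockout). Here the testis form, not the somatic form, had INO80.

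Cox8c (chromosome 12, 102899306 to 102900534), the testis form of that subunit, which Cox8a encodes elsewhere, held H2A.Z of 596 bp (wild type) and 461 bp (knockout) at its lower-coordinate end, and no INO80 within 20748 bp. Cox8a, the somatic form, held INO80 and the 169 bp wild-type H2A.Z peak described above, and Cox8b, known from heart and muscle, held no peak. Cox7b2 had a single wild-type H2A.Z peak of 167 bp, upstream of its start, and no other peak. Its somatic counterpart Cox7b, on the X chromosome, had none of the 3 within 1 kb, with the nearest wild-type H2A.Z peak 3908 bp away. Of the testis forms, 1 of 3 held INO80, 3 of 3 wild-type and 2 of 3 knockout H2A.Z. Of the 7 somatic forms of these pairs, 4 held INO80 (Cox4i1, Cox6a1, Cox8a and Ndufa4), 5 wild-type and 4 knockout H2A.Z. These shares of 57.1, 71.4 and 57.1% lay near those of all genes (54.5, 62.6 and 59.2%).

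Forms known from lung, heart, muscle or low oxygen had fewer peaks. Of 5 such genes only Ndufa4l2 held INO80 (185 bp), and it has Shmt2 and Stac3 beside it. Cox4i2 held wild-type H2A.Z alone (471 bp), Cox7a1 its short knockout peak alone, and Cox6a2 and Cox8b nothing. Of their 5 ubiquitous partners, Cox4i1, Cox6a1 and Ndufa4 had peaks in all 3 lists, with INO80 widths of 1171, 469 and 304 bp. Cox8a had none in the knockout list, and Cox7a2 had none at a gene end. Over the 8 tissue-restricted forms together INO80 was listed at 2, and over all genes at 54.5%. With 8 genes the share is imprecise.

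**Figure D5:**
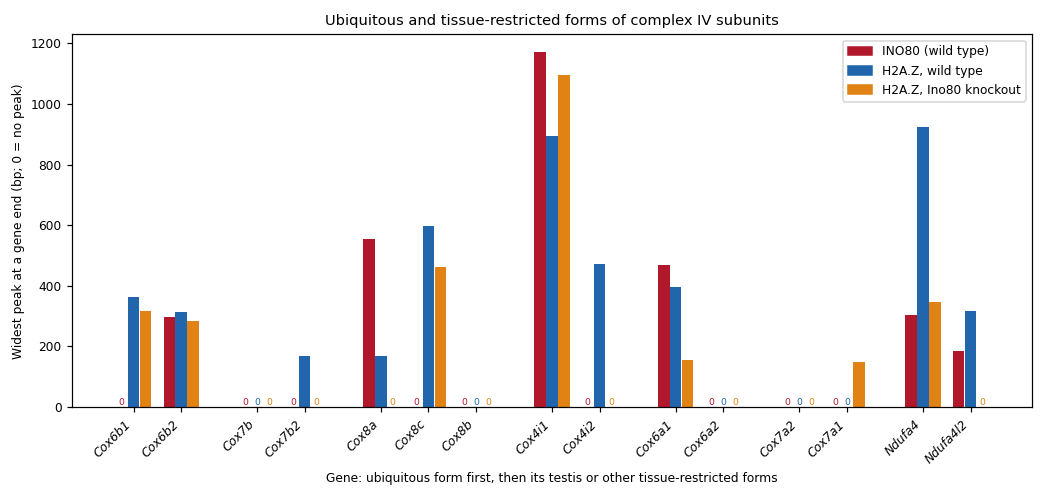
Width of the widest peak at a gene end (y axis, bp, 0 where there is no peak) for complex IV genes with tissue-restricted forms (x axis, ubiquitous form first), for INO80 and for H2A.Z of both genotypes. Cox6b2 has bars in all 3 lists and Cox8c in both H2A.Z lists, whereas Cox6a2, Cox7a2, Cox7b and Cox8b have none.

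Other genes of the pathway held INO80 at 43 of 47 (91.5%, 80.1 to 96.6%), against 54.5% of all protein-coding genes. Wild-type H2A.Z lay at 45 of them (95.7%, against 62.6%). The 4 genes of complex II (Sdha, Sdhb, Sdhc and Sdhd), the succinate dehydrogenase that also feeds ubiquinone, had peaks of all 3 lists, with INO80 widths from 183 bp at Sdhd to 587 bp at Sdhb. Of 31 assembly factors 28 held INO80, the exceptions being Cox16, Atpaf2 and Lyrm7. Cox18 and Cox20 had H2A.Z in the wild type alone. The 10 regulators all held INO80 and H2A.Z in both genotypes. Their INO80 peaks were wide at the coactivator genes Ppargc1a (3938 bp) and Ppargc1b (3411 bp), at Yy1 (2612 bp), Polrmt (1847 bp) and Nrf1 (1668 bp), and narrower at Tfam (714 bp) and Esrra (479 bp). The width given for Polrmt is that of the wider of 2 INO80 peaks. It reaches outside the gene at the lower-coordinate end, and the widest H2A.Z peaks of both genotypes lie at the other end. Mitochondrial ribosomal protein genes held INO80 at 67 of 78 (85.9%), cytosolic ribosomal protein genes at 81 of 100 (81.0%) and proteasome genes at 43 of 51 (84.3%), all above the 78.3% of the respiratory chain genes.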

How the data were processed

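The authors deposited 1 peak list per ChIP group, holding chromosome, start and end (other columns, such as a score, are absent), with all values in base pairs of mm10. Per the submitters' processing notes the tools were Bowtie2, SAMtools, deepTools and MACS2; their versions and roles, the threshold, the control and any pooling of libraries were not given in the sources used here. Each list has the same shortest peak width. Input libraries were not analysed here.

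Gene ends came from the RefSeq gene table of GRCm38.p6, and transcription starts, strands and promoter sequences from the RefSeq promoter table. The latter has no entry for 17 genes of the set, among them Ndufs1, Cox4i1, Cox4i2, Cox8c and Atp5a1. The values of 1 gene are not reported here, though it is included in the counts. A peak counted where at least 1 bp of it lay within 1 kb of a gene end, to either side. Widths rank within a list and stand in only loosely for strength. The background is the same count over all protein-coding genes.

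The genes and lists were chosen with earlier results of these data known, so no set test was made and shares are descriptions. Genes named by rule are the paired forms, the 3 widest INO80 peaks per complex, genes without INO80, genes with H2A.Z in 1 genotype or neither, and genes with INO80 without H2A.Z; other genes with extreme or illustrative values were chosen after their values were seen. Computations ran in Python 3.11.15 with pandas 2.3.3, numpy 2.4.6, matplotlib 3.10.9 and scipy 1.17.1. Gene counts equalled those of bedtools 2.31.1 for 3 of 3 lists, and the scoring was tested on simulated data, where 200 of 200 planted genes were found.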

Additional observations from a re-analysis of the deposited data

How the results depend on the processing

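No paired analysis was possible because each peak list stands for both libraries of its group and carries no replicate number, and for the same reason no replicate could be left out. Of 112 alternative values, 97 stayed within the 95% interval of the share (or within 1.5 times the median width) and 15 did not. Keeping the widest 50% of each list moved most values. INO80 was then listed at 17.4% of the genes, against 32.9% of all (5% of complex IV, 19.1% of complex I, 36.2% of other pathway genes and 0% of the 8 tissue-restricted forms), wild-type H2A.Z at 56.5% (all genes 49.2%), knockout H2A.Z at 41.3% (all genes 43.1%) and wild type alone at 18.5%. Wild-type H2A.Z was present at 68.8% of the genes that kept INO80, and median widths were 1178 bp for INO80 and 835 bp for knockout H2A.Z. This setting removes narrow peaks by construction. Restricted to genes without a neighbour's end inside 2 kb, INO80 was listed at 63.9%, at 0% of 3 tissue-restricted forms, wild-type H2A.Z at 100% of the 23 genes with INO80, and knockout H2A.Z alone at 0%. Windows of 500 bp or 3 kb, an overlap of at least 1 nucleosome's length, leaving out assembly factors, using listed starts and counting the gene body (the last chosen after seeing the data) moved none of these summary values beyond those limits. With 3 kb windows INO80 was gained at Atp5g3 and Ndufb10, and Atp5h, Ndufa4l2 and Ndufaf3 no longer had H2A.Z in 1 genotype alone. Peaks without a score or depth limit what a missing peak can say.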

Other observations

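Outside the respiratory chain, energy genes with a testis form gave a mixed picture. Of 7 somatic genes (Cycs, Pdha1, Pgk1, Gapdh, Ldha, Slc25a4 and Slc25a5) 5 held INO80, and of 6 testis genes (Cyct, Pdha2, Pgk2, Gapdhs, Ldhc and Slc25a31) 2 did, Pdha2 (275 bp) and Gapdhs (797 bp). The testis cytochrome c gene Cyct had H2A.Z of 565 bp (wild type) and 360 bp (knockout) without INO80, and the testis ADP/ATP carrier gene Slc25a31 likewise had 779 and 544 bp. Their somatic counterparts Cycs and Slc25a4 held all 3, with INO80 widths of 323 and 2151 bp. Neither Ldha nor Ldhc and neither Pgk1 nor Pgk2 had a peak at a gene end, and Gapdh had H2A.Z in the wild type alone (550 bp) inside an INO80 peak of 1838 bp. No test was made of these counts.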
